A study of Mus musculus with 6 samples.

Results

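The kinase NIK and the proteins that hold it in check or act directly below it were followed as 8 genes, out of 49492 gene symbols counted in stimulated mouse CD8 T cells. They were found by symbol, and all 8 had a row. They are Map3k14, which encodes NIK, the genes of the complex that degrades it (Traf2, Traf3, Birc2 and Birc3), Chuk, which encodes IKK alpha, and Nfkb2 and Relb, which encode p100 and RelB. All 8 passed the filter on low counts, with at least 2074 counts in every library.

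In resting cells TRAF3 binds newly made NIK, and TRAF2 brings in the ubiquitin ligases cIAP1 and cIAP2, the products of Birc2 and Birc3, so that NIK is degraded as it is made. Receptors of the TNF family, such as the lymphotoxin beta receptor, BAFF receptor, CD40 and OX40, break up this complex. NIK then accumulates and activates IKK alpha, p100 is cut to p52, and p52 enters the nucleus with RelB. Most of this control acts on protein, whereas the values here are RNA. In T cells the pathway is known for its part in costimulation and in effector and memory responses.

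The WT label stands for wild type OT-I mice and the KO label for NIK-CD4Cre-OT-I mice, with 3 libraries each, all of strain background C57/BL6 and 6 to 8 weeks old. OT-I mice carry a transgenic T cell receptor for an ovalbumin peptide, which both groups share, and a Cre under Cd4 control is active from thymic development on, also in cells that become CD8 cells. Splenic naive CD8 T cells of both groups had been kept for 24 hours with plate-bound anti-CD3 (1 µg/ml) and soluble anti-CD28 (1 µg/ml). The labels do not say which exons of Map3k14 the conditional allele loses, nor that each library is 1 mouse. The p-values therefore reflect spread between libraries that may in part be technical. WT replicates are numbered 1 to 3 and KO replicates 4 to 6, and values of single libraries are given in that order.

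Total counts ran from 41311346 to 47851445 per library, and 3 counts, the limit that a count of 0 allows, were at most 0.0726 normalised CPM (counts scaled by library size), for counting error only. The 8 markers listed for CD8 T cells summed to 2142 to 2331 CPM in libraries labelled WT and 2256 to 2371 in those labelled KO. They include Cd8a and Cd8b1 but also genes of T cells at large, such as Cd3e and Lck, so this sum does not single out CD8 cells. Of other cells, 7 B cell markers summed to 27.7 to 89.0 and 33.9 to 46.6 CPM, highest in WT replicate 2, and 8 myeloid markers to 7.55 to 13.4 and 11.3 to 25.2 CPM. The 4 CD4 T cell markers summed to 13.4 to 27.3 and 11.2 to 16.9 CPM, the 5 dendritic cell markers to 11.7 to 18.1 and 13.1 to 19.3 CPM, and the 5 erythroid markers to 0.345 CPM or less in each library. The NK cell list includes Nkg7, which CD8 cells also make, and the stroma list includes Pecam1, which naive T cells also make. How much each gene gave to these 2 sums is not shown here. The NK cell sum was 101.9 to 115.0 CPM with the WT label and 77.5 to 114.5 CPM with the KO label. The stroma sum was 88.0 to 93.5 and 103.1 to 131.5 CPM, so it was higher in every KO-labelled library, and its part in the results below was not tested. Of all marker lists, Col3a1 alone was at 0 in every library. Xist counts of 82938 to 92901 marked WT replicates 1 and 3 and KO replicate 6 as female, against 22 to 38 in the others. Each label thus held libraries of both sexes, and so of more than 1 mouse. By the mean chi-square per gene between 2 libraries, WT replicate 1 was closest to KO replicate 4 (21.2) and farthest from WT replicate 2 (58.0).

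Nfkb2 and Traf3 are shown by sequence for 2 reasons. They are the 2 members whose WT-labelled and KO-labelled libraries did not overlap with TMM scaling (the trimmed mean of M values). Both were higher with the KO label, as were 6.68% of tested genes without overlap, while 6.07% were lower. With upper-quartile scaling the Nfkb2 groups overlapped. Nfkb2 and Traf3 are also the 2 members with a match to the kappaB consensus, the 10-base site that NF-kB dimers bind. The consensus was searched by name on both strands of RefSeq promoter windows, from 250 bases before a gene's start to 50 after it, on GRCm38.p6. A window was found for 7 of the 8 members (Relb had none), and 2 of these 7 genes had a match, against 9.55% of 27025 genes in all. By window, 4 of 10 held one, of which 2 Nfkb2 windows overlap and share a match, against 8.46% of 32851. Bases are given 5′ to 3′ on the gene's strand, up to the base before the start, with matches in capitals.
Nfkb2 (chr19:46304487-46304736, plus strand): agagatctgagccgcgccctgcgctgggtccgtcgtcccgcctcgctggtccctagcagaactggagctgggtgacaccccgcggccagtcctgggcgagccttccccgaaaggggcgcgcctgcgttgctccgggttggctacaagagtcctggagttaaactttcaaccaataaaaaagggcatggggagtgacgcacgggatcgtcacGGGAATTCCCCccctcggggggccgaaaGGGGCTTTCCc
Traf3 (chr12:111166120-111166369, plus strand): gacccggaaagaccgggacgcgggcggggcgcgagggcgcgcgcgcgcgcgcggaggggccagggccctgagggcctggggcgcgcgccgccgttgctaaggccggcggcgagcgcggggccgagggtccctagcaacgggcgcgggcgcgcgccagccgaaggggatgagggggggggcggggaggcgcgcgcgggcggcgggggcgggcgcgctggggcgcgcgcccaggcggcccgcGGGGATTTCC
In the Nfkb2 window the matches lay from 39 to 29 bases before the start, where 3 overlapping matches on both strands make 1 block, and from 11 to 2 bases before it. The single Traf3 match took the last 10 bases before the start. The windows of both other Nfkb2 start sites also held matches, of which the site they share is the only match of the later window. The windows of Map3k14, Traf2, Birc2, Birc3 and Chuk held none. A match describes these letters and not a bound site, and no relation between matches and the values below was tested.

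Map3k14 (ENSMUSG00000020941.7, chromosome 11, 103219762 to 103267472, minus strand, GRCm38), the targeted gene, was measured at 53.6, 65.5 and 65.3 CPM with the WT label and 50.7, 64.5 and 54.7 CPM with the KO label. WT replicate 1 lay with KO replicates 4 and 6 at the low end, KO replicate 5 lay with the other WT libraries, and the groups overlapped. The fold, KO label over WT label, was 0.921 with a 95% interval from 0.766 to 1.11 (log2 fold -0.12, SE 0.11, edgeR quasi-likelihood adjusted p = 0.81). Without KO replicate 4 the log2 fold was -0.045, and without KO replicate 5 it was -0.22. The count covers the whole gene, and reads from exons that a conditional allele keeps would still be counted, so the check of the labels is partial. Directions below are therefore between libraries as labelled. In bulk RNA, fewer cells that make a transcript and less of it per cell cannot be told apart.

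**Figure D1:**
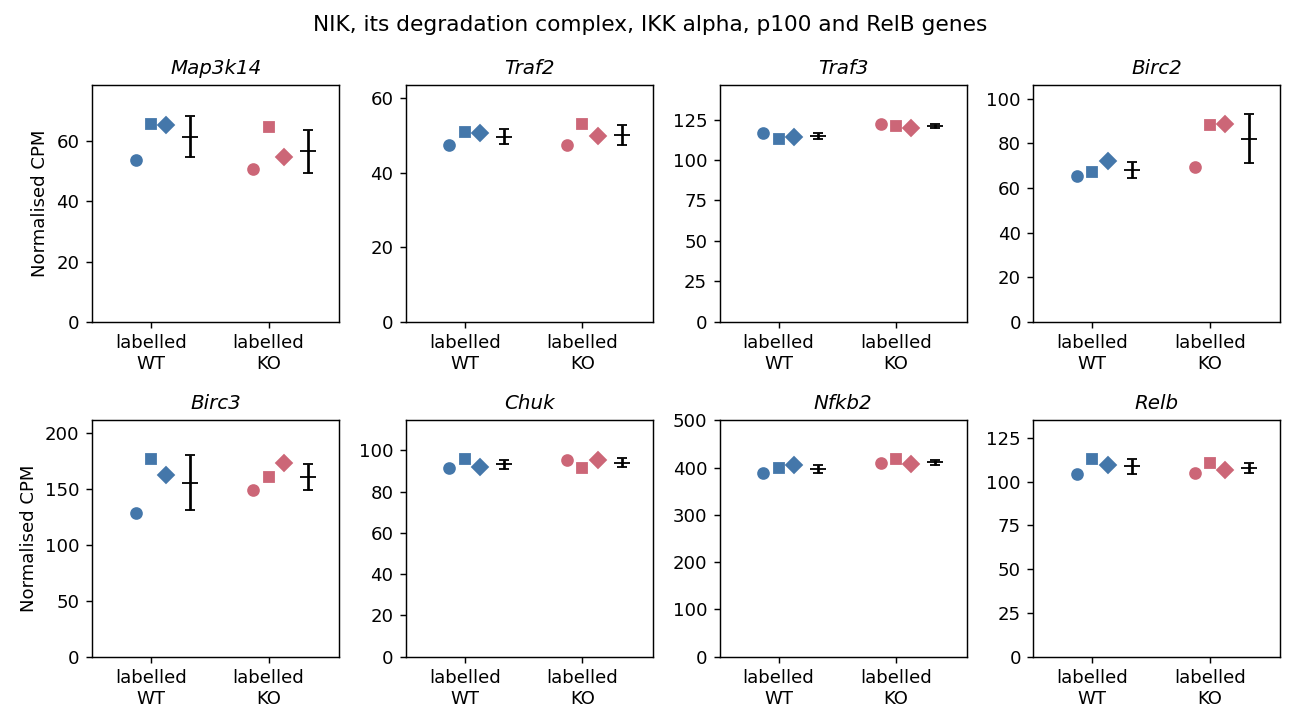
Normalised CPM (y axis, from 0) of the 8 genes in each library, by label. Circle, square and diamond are replicates 1, 2 and 3 of the libraries labelled WT and replicates 4, 5 and 6 of those labelled KO, and bars are the mean ± SD (n = 3). The groups overlapped for all genes but Traf3 and Nfkb2 (Traf3 alone with upper-quartile scaling), and KO replicates 5 and 6 stood above all other libraries for Birc2.

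No member was called between the labels. EdgeR, adjusting over 15186 tested genes, called 0 of 8 members at an adjusted p under 0.05, where 0.00659% of all tested genes were called, and DESeq2 called 0, where 0.657% were. At an unadjusted p under 0.05 1 member was higher, Birc2, and 0 were lower, against 3.82% and 3.44% of tested genes. The groups did not overlap for 2 of 8 members, both higher in the libraries labelled KO. Of all tested genes 6.68% were higher and 6.07% lower without overlap. With upper-quartile scaling Traf3 alone of the members remained so. Without WT replicate 1 edgeR called 0.764% of tested genes and again 0 members. The members' median log2 fold was 0.030, beside 0.0071 over all tested genes. The 95% intervals of the 8 folds together ran from 0.766 to 1.42.

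Among the genes of the degradation complex, Birc2, which encodes the ubiquitin ligase cIAP1 (chromosome 9, 7818227 to 7837064), had the largest estimate. It was at 65.2, 67.2 and 72.1 CPM with the WT label and 69.3, 88.3 and 88.5 CPM with the KO label. KO replicates 5 and 6 were higher than every other library, and KO replicate 4 lay among the libraries labelled WT. The fold was 1.20 (95% interval 1.02 to 1.42, log2 fold 0.27, SE 0.10, adjusted p = 0.66 in edgeR, DESeq2 adjusted p = 0.43). Over 13 alternative fits the log2 fold ran from 0.21 to 0.38 with the lowest adjusted p at 0.18.

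Its paralog Birc3, which encodes cIAP2, is the next gene along the chromosome among the members (7848699 to 7873186). It was at 128.1, 176.3 and 161.8 CPM with the WT label and 148.9, 160.1 and 172.5 CPM with the KO label. WT replicate 1 was lowest and WT replicate 2 highest, so the WT-labelled libraries spanned the KO-labelled ones. The log2 fold was 0.047 (SE 0.12, adjusted p = 0.93 in edgeR), and it was -0.074 without WT replicate 1. How reads were divided where Birc2 and Birc3 resemble each other is not stated, so both values are uncertain to that extent.

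Traf3 (chromosome 12, 111166370 to 111267153), the adaptor that binds NIK, was at 116.8, 113.0 and 114.3 CPM with the WT label and 122.0, 120.8 and 119.5 CPM with the KO label. Every KO-labelled library lay above every WT-labelled one, by a gap from 116.8 to 119.5 CPM. The fold was 1.05 (95% interval 0.987 to 1.12, log2 fold 0.074, SE 0.040, adjusted p = 0.71 in edgeR). Traf2 (chromosome 2, 25517982 to 25546940), which links TRAF3 to the cIAPs, was at 47.4, 50.9 and 50.8 CPM against 47.4, 53.0 and 49.9 CPM in the same order. The Traf2 groups overlapped throughout, with a log2 fold of 0.012 (95% interval of the fold 0.916 to 1.11, adjusted p = 0.97 in edgeR).

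Chuk, encoding IKK alpha, the kinase that NIK activates (chromosome 19, 44073335 to 44107480), varied little. It was at 91.6, 95.8 and 92.2 CPM with the WT label and 95.3, 91.6 and 95.4 CPM with the KO label. All libraries lay within 4.23 CPM of each other, and the fold was 1.01 with a 95% interval from 0.940 to 1.08 (adjusted p = 0.95 in edgeR).

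Nfkb2, encoding p100, the precursor of p52 (chromosome 19, 46304320 to 46312385), was at 387.7, 399.5 and 404.4 CPM with the WT label and 409.5, 417.7 and 407.1 CPM with the KO label. The groups were apart by the step from 404.4 to 407.1 CPM, and they overlapped with upper-quartile scaling. The fold was 1.04 (95% interval 0.964 to 1.11, adjusted p = 0.79 in edgeR). Relb (chromosome 7, 19606217 to 19629438), whose product pairs with p52, was at 104.3, 112.8 and 109.5 CPM against 105.1, 110.8 and 106.8 CPM. The Relb groups overlapped, with a fold of 0.989 and a 95% interval from 0.914 to 1.07 (adjusted p = 0.94 in edgeR).

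The members differed in how much replicates of a label varied. Within labels the SD of log2 CPM was 0.02 for Traf3, 0.03 for Nfkb2, 0.03 for Chuk, 0.05 for Relb and 0.07 for Traf2. It was 0.15 for Birc2, 0.17 for Map3k14 and 0.18 for Birc3. Among all tested genes the spread of Traf3 stood at the 0.679th percentile and that of Birc3 at the 60.4th, a ranking that also reflects the larger counting error of genes with few reads.

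Levels were compared between members per kilobase of annotated exon (GENCODE M21), as CPM per kilobase over the 6 libraries. Nfkb2 stood highest at 88.2 ± 2.20 (SD, n = 6), and its lowest library, at 84.6, was above every library of every other member. Birc3 (31.5 ± 3.51) and Relb (27.9 ± 0.864) followed, with ranges of 25.6 to 35.2 and 26.8 to 29.0 that overlapped. Chuk (18.4 ± 0.401), Birc2 (16.4 ± 2.31) and Traf3 (16.0 ± 0.491) came next. Birc2 overlapped both Chuk and Traf3, whereas the lowest Chuk library, at 18.0, was above the highest of Traf3, at 16.6. Traf2 (9.78 ± 0.424) and Map3k14 (9.01 ± 1.03) were lowest of the 8 and overlapped. With annotated exon as the length, the level of Nfkb2 per kilobase was thus 9.79 times that of Map3k14, a value that depends on the length used. With the longest transcript as the length, Nfkb2 was at 105.1 and Birc3 at 54.3 CPM per kilobase. Map3k14 was at 13.9 and Traf2 at 12.1, so they exchanged places, and the other ranks held. The overlaps between members given above are those with exon length and may differ with the longest transcript.

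**Figure D2:**
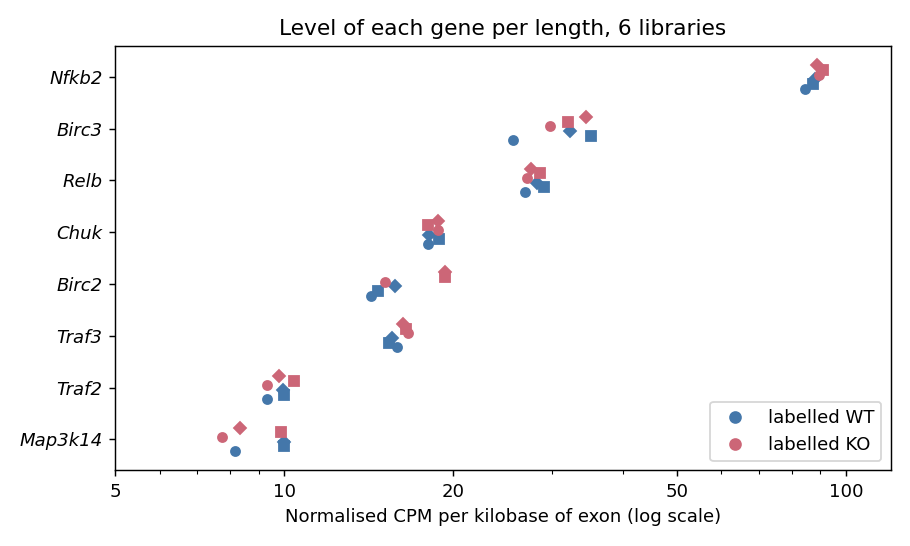
Normalised CPM per kilobase of exon (x axis, log scale) of each member in the 6 libraries, with shapes as replicates and colours as labels. Nfkb2 lies apart at 84.6 to 91.1, while Map3k14 and Traf2 overlap at the lower end.

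Exons of Traf2, Traf3, Birc2, Birc3, Chuk and Relb overlapped no other annotated gene's exons. Map3k14 shared 2.06% of its exon bases with 1700028N14Rik on the same strand, which had 10 to 20 counts. Nfkb2 shared 6.52% with Psd on the opposite strand, which had 40 to 71 counts. It shared 11.6% with AC114539.1, also on the opposite strand, which had no row under that name, so its counts are not known. Whether counting used strand was not given in the sources used here, so such reads cannot be told apart.

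Ratios of 2 genes within a library need no scaling between libraries, and 5 were tested between labels by exact two-sided permutation, whose smallest possible p here is 0.1. As ratios of counts they are not corrected for gene length and serve to compare libraries. Nfkb2:Nfkb1, p100 over the canonical precursor p105, was 0.403, 0.375 and 0.396 with the WT label and 0.476, 0.470 and 0.449 with the KO label. Every KO-labelled library lay above every WT-labelled one, and the log2 ratio differed by 0.25 (exact permutation p = 0.1, 0.25 after Benjamini-Hochberg adjustment over the 5 ratios). Most of that lay in the denominator.

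Nfkb1 was at 963.1, 1066 and 1022 CPM with the WT label and 859.9, 887.8 and 906.9 CPM with the KO label, with a log2 fold of -0.20 (SE 0.06, adjusted p = 0.60 in edgeR). Its groups did not overlap, with the libraries labelled KO lower, a pattern that 6.07% of tested genes had. Relb:Rela, the noncanonical over the canonical partner subunit, was 0.639, 0.610 and 0.650 in the WT-labelled libraries and 0.677, 0.667 and 0.734 in the KO-labelled ones. These too did not overlap, with a difference of 0.13 in the log2 ratio (exact permutation p = 0.1, adjusted 0.25). Rela itself had a log2 fold of -0.15 (adjusted p = 0.70 in edgeR), with overlapping groups.

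The ratios within the degradation complex and of the kinase to it overlapped between labels. Map3k14:Traf3 was 0.459, 0.579 and 0.571 against 0.416, 0.534 and 0.457, with a difference of -0.19 in the log2 ratio (exact permutation p = 0.2, adjusted 0.25). Birc3:Birc2 was 1.96, 2.62 and 2.24 against 2.15, 1.81 and 1.95, with a difference of -0.20 (exact permutation p = 0.2, adjusted 0.25). Traf2:Traf3 differed by -0.06 (exact permutation p = 0.5, adjusted 0.5). The order of the KO-labelled libraries in Map3k14:Traf3 followed that of Map3k14, and Traf3 varied little.

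**Figure D3:**
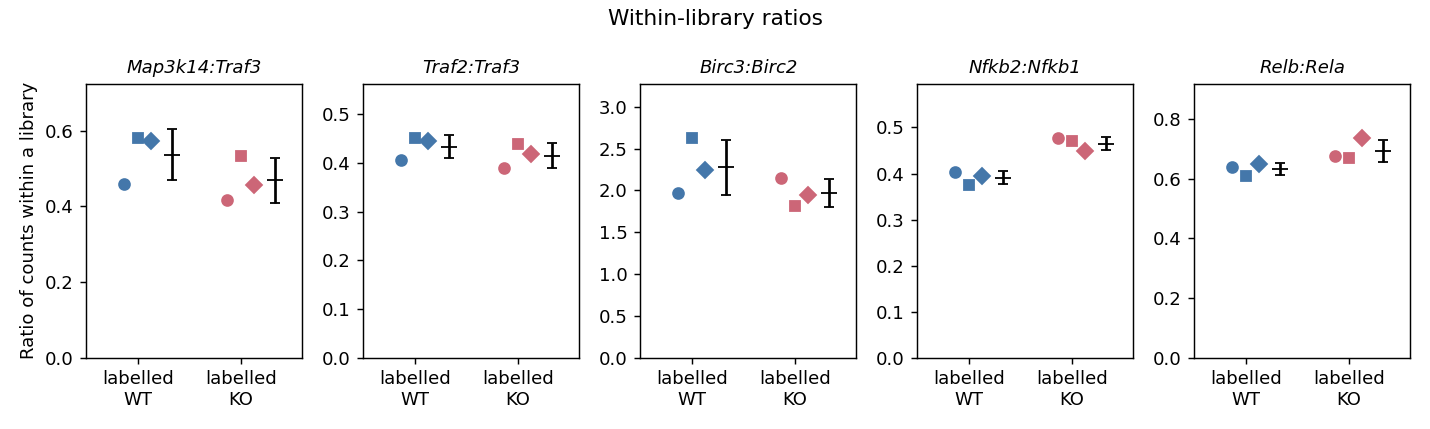
Ratio of the counts of 2 genes within each library (y axis, from 0), by label, with shapes as replicates and bars as the mean ± SD (n = 3). Nfkb2:Nfkb1 and Relb:Rela lie higher in all 3 KO-labelled libraries, and the other 3 ratios overlap.

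The other genes of the pathway were taken from a list of 35 ligands, receptors, regulators and targets. Of these 28 were tested and edgeR called 0, as did DESeq2, and an unadjusted p under 0.05 was reached by 1 higher (Ltb) and 1 lower gene (Tnfsf14), against 3.82% and 3.44% of tested genes. The groups did not overlap for 3 of the 28 genes, Ltb, Otud7b and the 4-1BB ligand gene Tnfsf9, all higher in the libraries labelled KO. Of all tested genes 6.68% were higher and 6.07% lower without overlap. The median log2 fold of the 28 genes was -0.01.

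Among 10 tested ligands 4 estimates were positive and 6 negative, with a median log2 fold of -0.29. The 2 with the smallest p went opposite ways. Ltb, the membrane subunit of lymphotoxin, was at 190.2, 199.4 and 200.6 CPM with the WT label and 206.0, 247.7 and 260.9 CPM with the KO label, with groups that did not overlap (adjusted p = 0.61 in edgeR). Tnfsf14, encoding LIGHT, was at 46.5, 66.1 and 51.4 CPM against 46.8, 41.1 and 42.3 CPM, with a log2 fold of -0.33 (SE 0.13, adjusted p = 0.67 in edgeR). KO replicate 4 lay just above WT replicate 1, so the Tnfsf14 groups overlapped. Lta, the gene of the other lymphotoxin subunit, had a log2 fold of -0.44 (SE 0.20, adjusted p = 0.70 in edgeR), with overlapping groups. Membrane lymphotoxin, which holds both subunits, and LIGHT bind the lymphotoxin beta receptor, whose gene Ltbr was at 0.237 to 0.866 CPM over the 6 libraries. Ltbr, Lta, Tnfsf9, Traf1, Nfkbib, Rel and Tnfrsf13c were named after their values were seen.

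Of 10 tested receptors 4 estimates were positive and 6 negative, and no receptor had an unadjusted p under 0.05. Tnfrsf9, the costimulatory receptor 4-1BB, was at 349.5, 534.4 and 556.2 CPM with the WT label and 340.8, 368.9 and 424.4 CPM with the KO label. WT replicate 1 fell inside the KO-labelled range, and the log2 fold was -0.34 (SE 0.18, adjusted p = 0.70 in edgeR). Tnfrsf12a, the receptor Fn14, was at 4.15 ± 1.20 CPM in libraries labelled WT and 3.09 ± 0.320 CPM in those labelled KO (SD, n = 3 a label, adjusted p = 0.70 in edgeR). Tnfrsf13c, encoding the BAFF receptor, a B cell gene, was at 2.18, 6.20 and 5.16 CPM against 2.53, 2.95 and 4.40 CPM. The summed B cell markers were at 27.7, 89.0 and 55.8 CPM against 33.9, 34.9 and 46.6 CPM in the same libraries, and their part in the Tnfrsf13c values was not tested.

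Regulators of NIK and p100 had estimates near 0. Of 7 tested, 5 were positive and 2 negative, and all lay between -0.04 and 0.10 in log2 fold. Otud7b, the deubiquitinase that protects TRAF3, was at 62.1 ± 0.423 CPM in libraries labelled WT and 66.4 ± 2.75 CPM in those labelled KO (SD, n = 3 a label, adjusted p = 0.70 in edgeR). Btrc, encoding the F-box protein of the ligase that recognises p100, varied most of the 7 within labels and was named for that after its values were seen, with a 95% interval of the fold from 0.841 to 1.24. Otub1, a deubiquitinase that stabilises p100, was at 86.0 ± 3.32 CPM in libraries labelled WT and 83.4 ± 2.22 CPM in those labelled KO (SD, n = 3 a label, adjusted p = 0.84 in edgeR).

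Known targets of p52 and RelB were mostly at or near 0. Ccl19 and Ccl21a had 0 counts in every library, Cxcl12 and Cxcl13 had at most 3 and 1, and Madcam1 had 6 to 24. These are chiefly genes of lymphoid stroma. Icosl, the ligand of ICOS, was the single target tested, at 2.38 ± 1.24 CPM in libraries labelled WT and 2.77 ± 0.592 CPM in those labelled KO (SD, n = 3 a label, adjusted p = 0.90 in edgeR). The ligand gene Tnfsf12 (0 to 2 counts) and the regulator gene Nlrp12 (0 counts) also missed the filter.

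**Figure D4:**
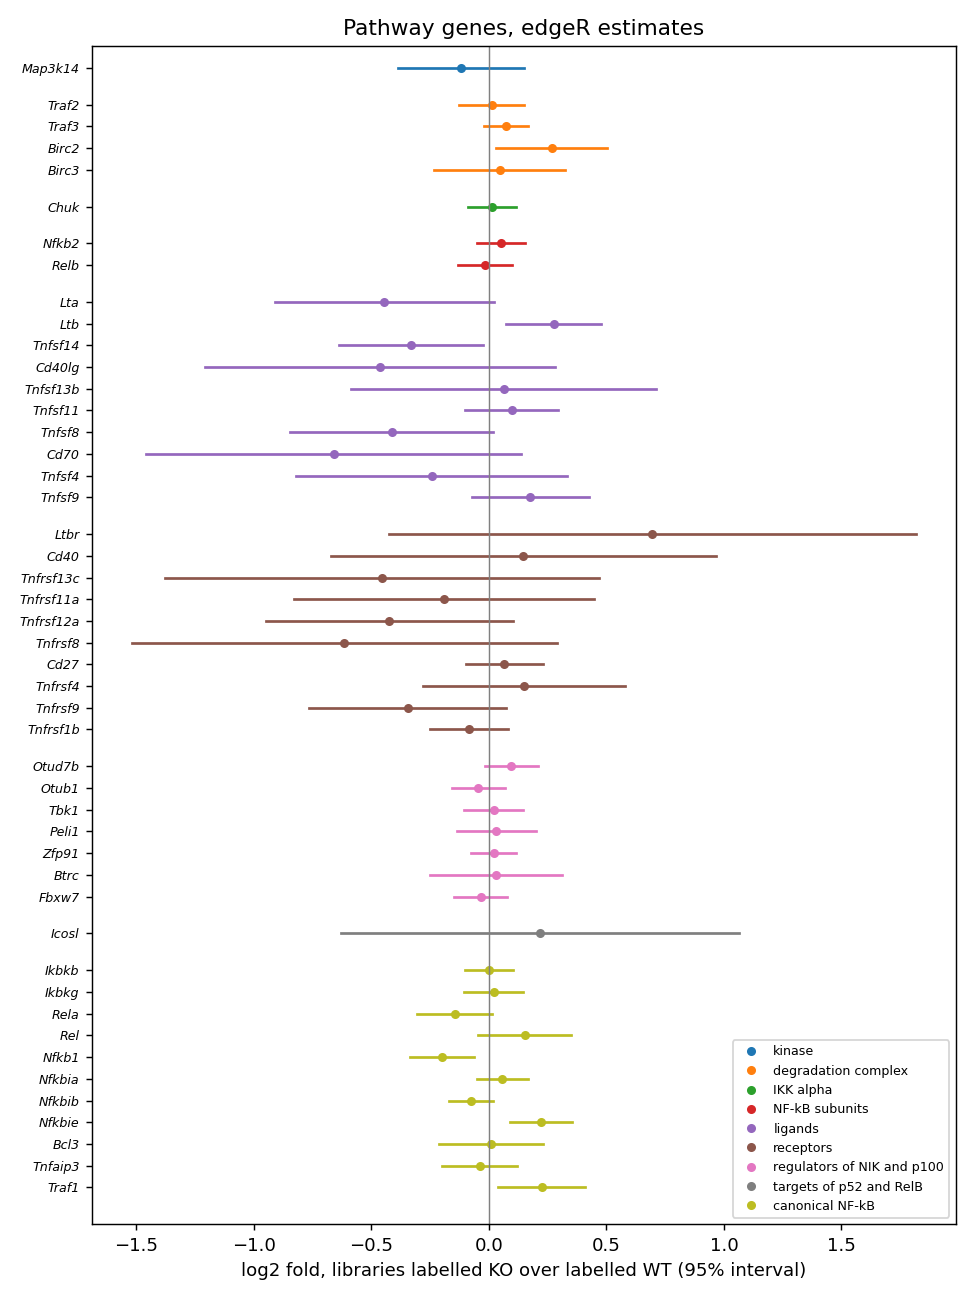
Log2 fold of KO-labelled over WT-labelled libraries (x axis) with its 95% interval for each tested gene, coloured by role. The intervals of all members but Birc2 include 0, and the widest interval shown is that of Ltbr, which is at under 1 CPM.

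For comparison, 11 genes of the canonical pathway gave 0 calls in edgeR and in DESeq2, and an unadjusted p under 0.05 was reached by 2 higher genes (Nfkbie and Traf1) and 1 lower (Nfkb1), against 3.82% and 3.44% of tested genes. The groups did not overlap for 1 higher gene (Nfkbie) and 2 lower ones (Nfkb1 and the inhibitor gene Nfkbib), against 6.68% and 6.07%. Their median log2 fold was 0.01. Nfkbie, an inhibitor of NF-kB, had the smallest p, at 42.9, 39.5 and 41.6 CPM with the WT label and 46.0, 48.6 and 50.1 CPM with the KO label. All 3 libraries labelled KO were higher, with a log2 fold of 0.22 (SE 0.06, adjusted p = 0.60 in edgeR). The log2 folds of the noncanonical subunit genes were 0.051 for Nfkb2 and -0.017 for Relb. Those of the canonical subunit genes went both ways, at -0.20 for Nfkb1, -0.15 for Rela and 0.15 for Rel (adjusted p = 0.71 for Rel in edgeR).

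The genes most like a member over the 6 libraries were sought among 8403 genes averaging 10 CPM or more. Genes with Gm, Rik, ENSMUSG or Mir names, or names that start with a digit, were left out. Likeness was the root mean square difference of log2 CPM after centring each gene. For Map3k14 the closest genes were Harbi1 (0.01), Dedd2 (0.03) and Parp4 (0.03), where the median gene differed by 0.18. Harbi1 was at 11.4, 13.8 and 13.9 CPM with the WT label and 10.8, 13.6 and 11.4 CPM with the KO label, low in the same 3 libraries as Map3k14. For Nfkb2 they were Arid2, Ppm1b and Ipo8 (0.01, 0.01 and 0.02, against a median of 0.09). With 6 libraries and this many genes, close matches describe these libraries and carry no test.

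**Figure D5:**
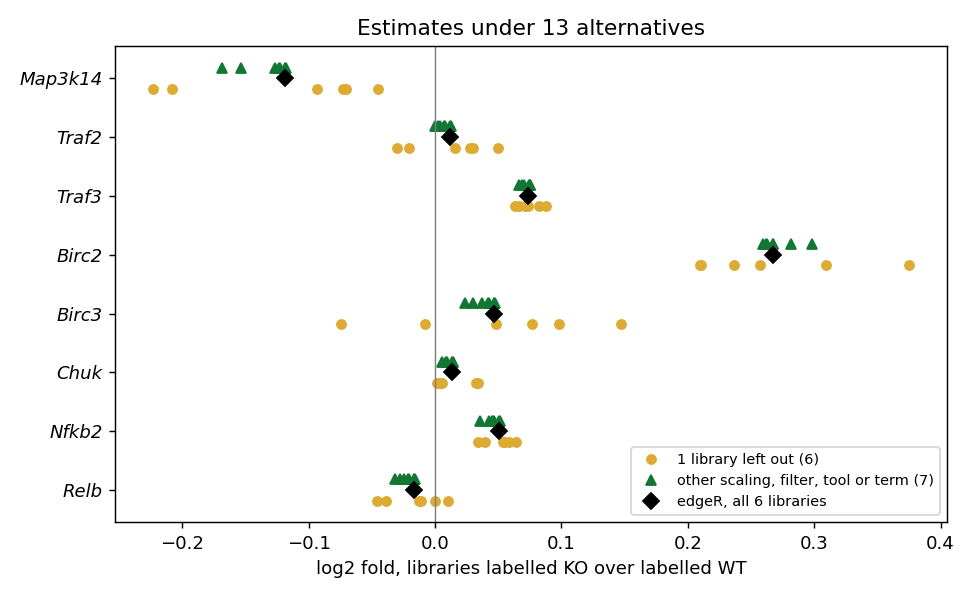
Log2 fold of each member (x axis) with all 6 libraries (diamonds), with 1 library left out (circles) and under 7 other settings (triangles). Estimates for Birc2, Traf3, Nfkb2 and Chuk stay above 0 and those for Map3k14 below it, while Traf2, Birc3 and Relb fall on both sides.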

How the data were processed

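Total RNA of the stimulated CD8 T cells was extracted with Trizol, per the labels' protocols. The deposited file is a table of raw counts by gene symbol, 1 column for each library, and 0 columns went unused. HTSeq 0.9.1, DESeq2 and mm10 are named without a role, per the submitters' processing notes. Aligner, annotation and use of strand were not given in the sources used here. Groups came from the sample titles, whose replicate numbers are not shared between genotypes and pair no libraries. No library was treated as a duplicate, since chi-square per gene averaged 21.2 to 58.0 between pairs of libraries (genes with 200 counts or more).

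Counts were fitted with edgeR 4.0.16 under R 4.3.3, with TMM scaling, filterByExpr and the robust quasi-likelihood fit and test (glmQLFit, glmQLFTest), over all genes, with Benjamini-Hochberg adjustment and a call at an adjusted p under 0.05. CPM are counts scaled with TMM factors. SE and 95% intervals were derived from the fold and its F statistic. Positions and lengths came from GENCODE M21 on GRCm38, the mm10 assembly, and promoters from RefSeq on GRCm38.p6. The alternatives comprised scaling by RLE or upper quartiles, no filter or 1 CPM in 3 libraries, DESeq2 1.42.0, limma 3.58.1 (voom with quality weights), a term for sex, and each library left out. The procedure was tested on simulated counts, with planted folds larger than any estimated for a member. That test does not show whether changes of the members' size would be found. The members, lists and tests were chosen with earlier results of these data known. The rule for names took all members, the 2 genes per role with the smallest p, ratio partners and the 3 genes most like Map3k14 and Nfkb2.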

Additional observations from a re-analysis of the deposited data

How the results depend on the processing

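Members called and other pathway genes called stayed at 0 in all 13 alternative fits, and the lowest adjusted p of any member was 0.18 (Birc2 without KO replicate 4). Over all genes, where edgeR called 1, the count was 10 without a low-count filter and 96 with DESeq2, and leaving out 1 library gave from 1 to 119, with 119 without WT replicate 1 and 2 without WT replicate 2. The cause was not tested. The log2 fold of Traf2 was -0.00036 with limma-voom quality weights. Leaving out 1 library gave from -0.030 to 0.050 for Traf2, from -0.074 to 0.15 for Birc3 and from -0.046 to 0.010 for Relb, so these 3 estimates changed sign, while those of the other 5 members kept theirs in all 13 fits. The differences of all 5 ratios kept their sign with each library left out, running from 0.22 to 0.28 for Nfkb2:Nfkb1 and from 0.09 to 0.16 for Relb:Rela in log2. No paired analysis was possible because the genotypes share no replicate numbers. With 3 libraries per label an exact test of 1 value cannot go below p = 0.1. Ltbr, at 11 to 36 counts, and the genes that missed the filter rest on few counts.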
